A study of Mus musculus with 12 samples.

Results

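The spleens of 3 proteoglycan-immunized BALB/cJ mice were compared with those of 3 naive BALB/cJ mice, probe set by probe set, as immunized minus naive. These 6 arrays are the BALB/cJ part of a series of 12, whose other 6 arrays hold the same treatments in BALB/cByJ, a separately bred colony of BALB/c. All mice were age-matched females, and each array held total RNA of a piece of spleen from its own animal. Immunized mice had received 1 intraperitoneal injection of human cartilage proteoglycan (aggrecan, 100 µg of protein per the labels) in 2 mg of the adjuvant dimethyldioctadecyl-ammonium bromide (DDA), and spleens of all mice were taken on day 12. Naive mice were left untreated, so the effects of antigen, adjuvant and injection cannot be told apart here. The question was which spleen transcripts differ early after immunization, ahead of joint disease. All 45037 probe sets other than the 64 Affymetrix controls of the Affymetrix whole-genome mouse array were compared.

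Aggrecan is the large proteoglycan of cartilage, and repeated injection of the human form in a strong adjuvant makes susceptible BALB/c mice develop autoimmune arthritis and spondylitis. After a first injection, B cells that recognise the antigen divide in splenic germinal centres, where mutation and selection refine their antibodies with the help of T cells. Adjuvants act alongside by drawing in and activating innate cells: acute-phase proteins, chemokines and neutrophil precursors commonly appear in the spleen, which in the mouse is also a blood-forming organ.

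No probe set passed the test in BALB/cJ. Of 45037 probe sets, 0 (0.0%) had a Benjamini-Hochberg adjusted p under 0.05 in limma, and the smallest adjusted p was 0.21. At an unadjusted p under 0.05 there were 4137 probe sets (9.19%), of which 1814 (4.03%) were higher and 2323 (5.16%) lower in immunized mice. The same fit called 23 probe sets (0.0511%) for immunization in BALB/cByJ. In BALB/cJ, the difference passed 1 on the log2 scale (2-fold) upward for 41 probe sets and downward for 17, and the 3 immunized arrays did not overlap the 3 naive arrays for 29 and 8 of these. Over all probe sets, 7.53% had non-overlapping groups with the immunized arrays higher and 9.51% with them lower. The study's own kind of test, an analysis of variance over the 4 groups with pairwise comparisons after it, called 28 probe sets in this contrast. There the adjusted p is that of the 4-group test, to which differences between the colonies also contribute. Its pairwise step was not adjusted over probe sets, so the 28 are not calls of the same kind as those of limma. Weighting each array by its regularity called 651. Since no call was made by the limma fit as chosen, the genes below are given by their values, and "higher" and "lower" are positions of the group means. Every value is log2 expression relative to the median of that probe set over all 12 arrays, so levels of different genes cannot be compared and the tissue cannot be checked by absolute marker levels.

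The 6 BALB/cJ arrays were not uniform within their groups, and several gene lists moved with single arrays. Immunized replicate 1 bore sample number 33, and replicates 2 and 3 bore 49 and 50, whereas the naive mice bore 13, 14 and 15. Naive and immunized mice share no run of numbers, so treatment and run cannot be told apart. Erythroid genes were low in naive replicates 1 and 2 and in immunized replicate 3, with list medians of -1.25, -1.45 and -0.27 in the naive and -0.15, 0.21 and -0.87 in the immunized arrays. Pigment cell genes, an index of melanocytes in the tissue piece, were high in naive replicates 1 and 2 and immunized replicate 1, with medians of 0.94, 1.09 and -0.02 against 0.88, -0.07 and -0.17. Their marker Dct stood at 6.29, 6.26 and 2.27 in naive and 5.69, -0.18 and -0.08 in immunized mice, the widest spread of the list. The pancreas list had no member with an unadjusted p under 0.05 in BALB/cJ, and its medians lay between -0.14 and 0.03. In bulk tissue, fewer cells of a type and less RNA per cell cannot be told apart.

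Acute-phase, chemokine and macrophage receptor genes were among those with the largest differences toward higher expression. Those named in this paragraph were chosen from probe sets whose groups did not overlap, so their separation was fixed by the choice. Saa3, an acute-phase serum amyloid A protein made by inflamed tissue and macrophages, stood at -0.80, -0.63 and -0.99 in the naive and 2.42, 0.63 and 0.98 in the immunized mice. Immunized replicate 1 was the highest. The difference was 2.15 ± 0.42 (SE, n = 3 and 3), or 4.44-fold, with a limma adjusted p of 0.323. Ccl8, a chemokine for monocytes and T cells, was at -0.59, -0.47 and -0.36 in naive and 3.03, 1.06 and 0.36 in immunized mice, a difference of 1.96 ± 0.48 with an adjusted p of 0.353. C3ar1, the receptor for complement fragment C3a, gave -0.68, -0.62 and -0.71 against 2.90, 0.22 and 0.18. Its difference of 1.77 ± 0.52 was carried mostly by immunized replicate 1, although all 3 immunized arrays lay above the naive arrays, as the choice required. Trem2, a lipid-sensing receptor of macrophages, gave -0.35, -0.32 and -0.14 against 2.23, 1.01 and 0.50, a difference of 1.52 ± 0.30. Atp6v0d2, a proton pump subunit of macrophages and osteoclasts, gave 0.64, -0.17 and -1.04 against 2.29, 0.67 and 0.67, a difference of 1.40 ± 0.50, with the naive mice themselves spread widely. Cxcl1, a chemokine that draws neutrophils, was more even: 0.04, -0.30 and -0.05 in naive and 0.66, 0.29 and 0.41 in immunized mice for the probe set with the smallest p, a difference of 0.55 ± 0.12. Its other 2 probe sets differed by 0.08 and 0.02 with overlapping groups.

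**Figure D1:**
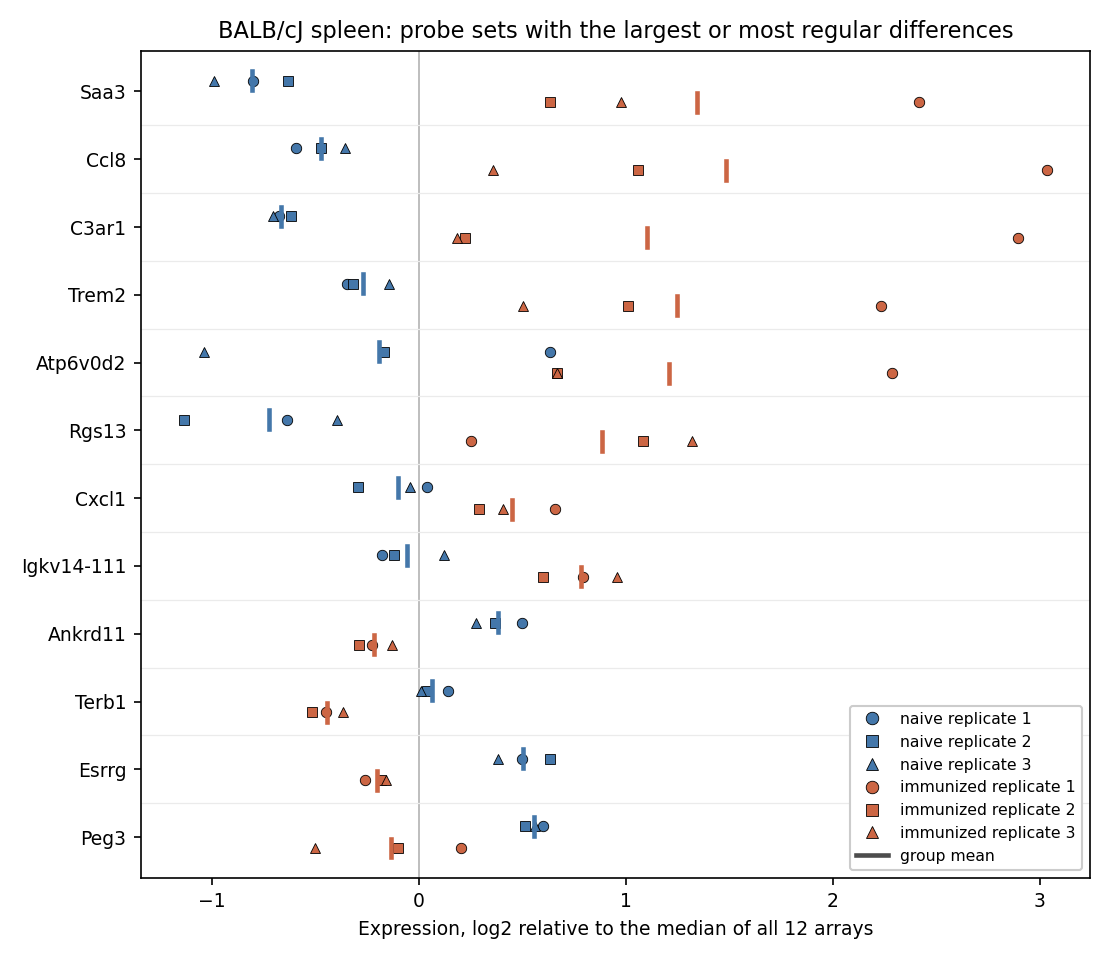
Expression of 12 named probe sets in each BALB/cJ array (points, blue for naive and orange for immunized, shape for replicate; thick ticks are group means), on a log2 scale relative to the median of all 12 arrays. Immunized replicate 1 stands at 2.42 for Saa3, 3.03 for Ccl8, 2.90 for C3ar1 and 2.23 for Trem2, to the right of the other immunized arrays, whereas Ankrd11, Terb1 and Esrrg lie close together within each group.

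Among all 28 measured chemokine ligand genes, taking each gene as the mean of its probe sets, 6 were higher at an unadjusted p under 0.05, 0 were lower and 22 were neither. Over all 18193 genes the share higher was 4.69%, and the share lower was 5.3%. These shares are the baseline for all list counts at this threshold below. The median difference of the chemokine list was 0.10, against 0.00 for all genes. Beside Ccl8 and Cxcl1, the 6 included Ccl9, at 0.01, -0.26 and -0.01 against 1.03, 0.31 and 0.14, and the monocyte chemokines Ccl7 and Ccl2. Ccl7 differed by 0.39 ± 0.13 and Ccl2 by 0.39 ± 0.15, and in both genes immunized replicate 1 was the highest, at 0.64 and 0.66. Without immunized replicate 1 the count of higher chemokine genes was 3, and with mean erythroid expression in the model it was 1. A fit without immunized replicates 2 and 3 and immunized BALB/cByJ replicate 3 left immunized replicate 1 as the lone immunized BALB/cJ array. The chemokine median was 0.19 there, and differences were 3.23 for Saa3, 3.51 for Ccl8, 3.57 for C3ar1, 2.50 for Trem2 and 1.12 for Ccl9. Without the 4 arrays where pigment cell genes were high, which left naive replicate 3 as the lone naive BALB/cJ array, the chemokine median was 0.04. In the macrophage and monocyte list 0 of 20 genes had an unadjusted p under 0.05, the median difference was 0.01, and list medians ranged from 0.02 to 0.21 in naive and from -0.04 to 0.11 in immunized mice.

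Germinal centre B cell genes were higher on balance, with a single large member. Of 15 listed genes 13 were measured, 5 were higher at an unadjusted p under 0.05 and 0 lower, and 6 did not overlap upward (7.41% of all genes) and 1 downward (9.37%). The median difference was 0.13. Rgs13, a G protein regulator found chiefly in germinal centre B cells and mast cells, was at -0.64, -1.14 and -0.40 in naive and 0.25, 1.08 and 1.32 in immunized mice, 1.61 ± 0.32 or 3.05-fold higher. Mybl1, a transcription factor of dividing germinal centre cells, gave -0.24, -0.23 and -0.08 against 0.04, 0.21 and 0.38. S1pr2, which holds B cells inside the germinal centre, gave -0.29, -0.04 and -0.16 against 0.10, 0.08 and 0.16, a difference of 0.28 ± 0.09. In these 3 genes every immunized mouse lay above every naive mouse. Ung, which removes uracil from DNA, and Polh, an error-prone polymerase of somatic hypermutation, were higher by 0.33 ± 0.08 and 0.31 ± 0.12. Both are also used in DNA repair of other cells. The central germinal centre repressor Bcl6 differed by 0.13 ± 0.08 and the death receptor Fas by 0.06 ± 0.08, in both cases with overlapping groups.

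The response of germinal centre genes was set against that in BALB/cByJ. There 6 of the 13 were called (0.0824% of all genes), with differences of 3.07 for Rgs13 (limma adjusted p = 0.00378), 1.12 for Mef2b, 1.03 for Neil1, 0.97 for Mybl1, 0.86 for Gcsam and 0.80 for S1pr2. The same 6 differences in BALB/cJ were 1.61, 0.29, 0.01, 0.39, 0.11 and 0.28. When the difference of the 2 responses was itself tested, 10 of the 13 genes had a smaller response in BALB/cJ at an unadjusted p under 0.05 and 0 a larger one, against 5.49% and 3.19% of all genes, and the median difference of responses was -0.39. None of the 13 passed after adjustment over all genes in limma, where the smallest adjusted p was 0.084, for Neil1. This list, like the others here, was written with earlier results of these data known. Its members Neil1 and S1pr2 are also marked by the study on these samples. The counts are therefore not independent evidence of a smaller response in BALB/cJ.

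**Figure D2:**
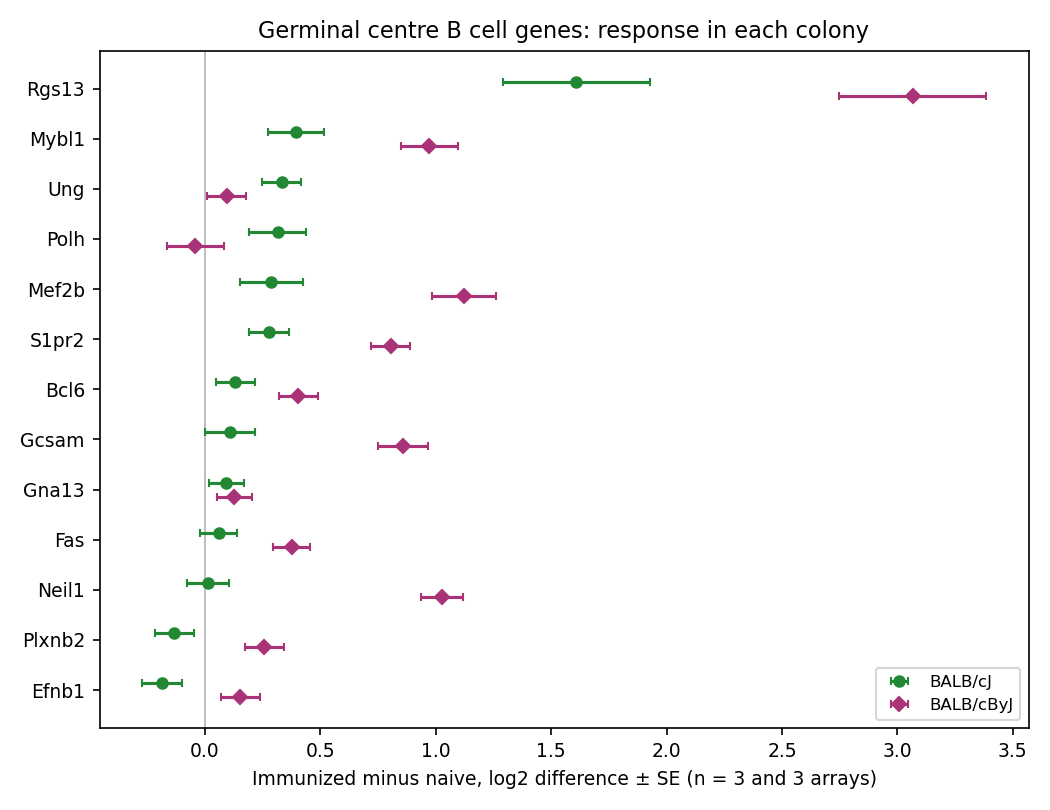
Immunized minus naive log2 difference of the 13 measured germinal centre B cell genes in BALB/cJ (green circles) and BALB/cByJ (purple diamonds); bars are the SE of the limma fit, 3 immunized and 3 naive arrays in each colony. Rgs13 is at 1.61 in BALB/cJ and 3.07 in BALB/cByJ, and Neil1 at 0.01 and 1.03.

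Over single probe sets the 6 genes with the smallest p for a difference between the responses were Neil1, Cep55, Endod1, Rassf6, Cilp and Gcsam. Neil1, a DNA glycosylase of base excision repair, lay between -0.03 and 0.00 in naive and between -0.15 and 0.13 in immunized BALB/cJ mice, and the 2 responses differed by -1.01 ± 0.14 (adjusted p = 0.198). Cep55, a cytokinesis protein, differed by 0.14 in BALB/cJ and 1.08 in BALB/cByJ (adjusted p of the difference = 0.198). Rassf6, a Ras-association domain protein, differed by 0.00 and 1.15, the germinal centre signalling protein Gcsam by 0.02 and 0.76, and the cartilage matrix protein Cilp by -0.07 and 0.61, each with an adjusted p of 0.356. Endod1, an endonuclease-domain protein, went the other way, at 0.54 in BALB/cJ and -0.38 in BALB/cByJ. The difference of the responses gave 0 calls (0.0%), 3417 probe sets at an unadjusted p under 0.05 (7.59%, of which 3.1% with a larger and 4.49% with a smaller response in BALB/cJ), and up to 10 calls when 1 array was left out, the 10 without immunized BALB/cJ replicate 1.

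Of the 8 genes that the study marks as differing only in response to immunization, 6 were named by the annotation used here, on 13 probe sets. This list was chosen on these samples, so its directions are not independent evidence. S1pr2 was higher and Atg2b, Ganc and Irak1 lower in immunized BALB/cJ mice, each at an unadjusted p under 0.05 on 1 of its probe sets. Atg2b, an autophagy lipid transfer protein, stood at -0.01, 0.07 and -0.02 in naive and -0.22, -0.26 and -0.23 in immunized mice, a difference of -0.25 ± 0.07. Its other 2 probe sets differed by -0.14 and -0.08. Ganc, a neutral alpha-glucosidase, gave 0.01, 0.06 and 0.01 against -0.17, -0.22 and -0.29. Its other probe set differed by 0.04 with overlapping groups. Irak1, a kinase of Toll-like and interleukin-1 receptor signalling, gave 0.06, 0.06 and 0.00 against -0.11, -0.20 and -0.16. Its other probe sets differed by -0.08, -0.07 and -0.06 with overlapping groups. On the probe sets with the smallest p these differences were tight within groups but small. Their limma adjusted p values lay between 0.353 and 0.407. Neil1 and Cilp, also marked, differed by 0.01 and -0.07 in BALB/cJ.

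Plasma cell genes moved little, and few antibody constant region genes were measured. Of 15 plasma cell genes 0 were higher and 1 lower at an unadjusted p under 0.05, the latter being Tnfrsf13b (TACI), a receptor of B cells and plasma cells that differed by -0.23 ± 0.07. The list median was 0.05 in BALB/cJ and 0.25 in BALB/cByJ. The 3 measured immunoglobulin constant region genes differed by -0.21 to 0.13 with overlapping groups. A kappa light chain variable segment gene was an exception by value, at -0.18, -0.12 and 0.12 in naive and 0.79, 0.60 and 0.96 in immunized mice, 0.84 ± 0.14 or 1.79-fold higher. It was measured by a single probe set, which related variable segments may share.

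Of the 15 measured B cell genes 13 were below 0 and 2 were lower at an unadjusted p under 0.05, with a median of -0.12. Fcer2a (CD23), the low-affinity IgE receptor of follicular B cells, gave 0.51, 0.42 and 0.23 in naive and -0.09, 0.19 and -0.16 in immunized mice, a difference of -0.41 ± 0.10 (1.33-fold lower). Ebf1, a B-lineage transcription factor, differed by -0.19 ± 0.07. The count was 4 without naive replicate 3 or immunized replicate 2, and 1 without naive replicate 2 or immunized replicate 1. The list median was -0.03 without the arrays of low erythroid expression and 0.003 without those of high pigment cell expression. Each of those fits left naive replicate 3 as the lone naive BALB/cJ array.

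T cell genes gave little. None of 13 T cell genes and none of 18 T follicular helper and activation genes had an unadjusted p under 0.05. Among 21 T helper lineage genes, 3 were lower: Foxp3, the regulatory T cell factor, by -0.23 ± 0.07, the chemokine receptor Ccr6 by -0.19 ± 0.08 and the interleukin-12 receptor subunit Il12rb2 by -0.25 ± 0.11. Without immunized replicate 1 that count was 1. Il21, the follicular helper cytokine, differed by 0.24 ± 0.13, at -0.41, 0.04 and -0.13 against 0.18, 0.01 and 0.03. None of the 6 cytokine genes whose proteins the study assayed had an unadjusted p under 0.05 in the limma fit. Il6 differed by 0.15 ± 0.10, Ifng by 0.11 ± 0.18, Il4 by -0.05 ± 0.13, Tnf by -0.11 ± 0.08, Il1b by -0.13 ± 0.15 and Il2 by -0.15 ± 0.15.

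Genes of neutrophil precursors were higher together. Of 17 measured genes 13 were higher at an unadjusted p under 0.05 (4.69% of all genes) and 0 lower (5.3%). The groups did not overlap upward for 14 (7.41% of all genes), and the median difference was 0.97. Chil3 (Ym1), a chitinase-like secreted protein, gave 0.30, -0.90 and -0.54 in naive and 0.94, 1.20 and 0.90 in immunized mice, 1.39 ± 0.30 or 2.62-fold higher. The secondary granule genes moved alongside: Camp, the cathelicidin, by 1.29 ± 0.32, Ltf, lactoferrin, by 1.38 ± 0.36, Lcn2, an iron-sequestering lipocalin, by 1.34 ± 0.36, and Ngp by 1.14 ± 0.28. The primary granule genes Mpo (myeloperoxidase) and Elane (neutrophil elastase), made at the promyelocyte stage, were higher by 1.11 ± 0.32 and 0.97 ± 0.30, and S100a8, a calprotectin subunit, by 0.65 ± 0.18. No member passed after adjustment in limma, and others did not reach an unadjusted p under 0.05 either. Among these, the colony-stimulating factor receptor Csf3r differed by -0.13 ± 0.15, Cxcr2 by 0.03 ± 0.17 and the gelatinase Mmp9 by 0.05 ± 0.21. All 3 had overlapping groups and changed sign under some settings.

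By array the neutrophil list medians were 0.14, -0.84 and -0.24 in naive and 0.48, 0.85 and 0.73 in immunized mice. Naive replicate 2 was the lowest, and the groups did not overlap. The count of higher genes was 10 without naive replicate 2. The list median was 0.87 without the 3 arrays with low erythroid genes and 0.76 without the 3 arrays with high heat shock genes. Each of those fits left 1 array in a BALB/cJ group. In BALB/cByJ the list median was 1.5, and none of the 17 genes had an unadjusted p under 0.05 for a difference between the responses.

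**Figure D3:**
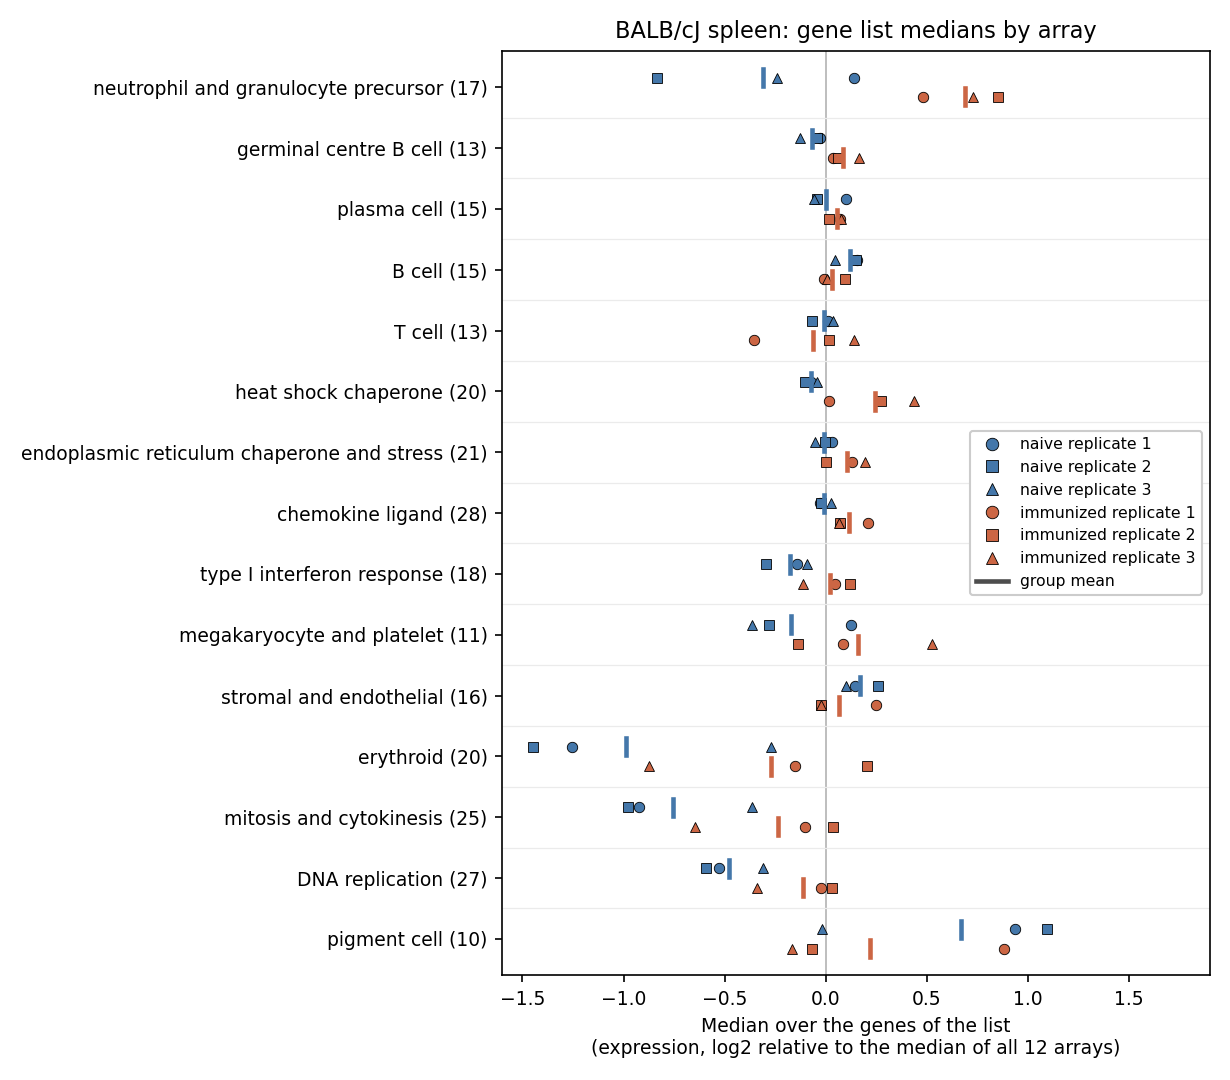
Median over the genes of 15 lists in each BALB/cJ array (number of measured genes in brackets; blue naive, orange immunized, shape for replicate, thick ticks are group means), on a log2 scale relative to the median of all 12 arrays. The neutrophil medians of the 3 immunized arrays, 0.48 to 0.85, lie above those of the naive arrays, while erythroid, mitosis and replication medians are low in naive replicates 1 and 2 and immunized replicate 3.

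Heat shock chaperone genes, which fold and refold proteins in the cytosol, were also higher together. Of 20 measured genes 15 were higher at an unadjusted p under 0.05 (4.69% of all genes) and 0 lower (5.3%). The groups did not overlap upward for 13 (7.41% of all genes), and the median difference was 0.43. Many such genes are driven by heat shock factor, which binds inverted repeats of GAA in their promoters, so the promoters of 3 members are shown, 5′ to 3′ on the gene's strand from RefSeq (GRCm38.p6), from 250 bases before to 50 bases after the annotated start, with matches to GAANNTTC in capitals. Hspa1b lies on the minus strand at chr17:34959189-34959488, Hsph1 on the minus strand at chr5:149636266-149636565 and Chordc1 on the plus strand at chr9:18292017-18292316.
Hspa1b: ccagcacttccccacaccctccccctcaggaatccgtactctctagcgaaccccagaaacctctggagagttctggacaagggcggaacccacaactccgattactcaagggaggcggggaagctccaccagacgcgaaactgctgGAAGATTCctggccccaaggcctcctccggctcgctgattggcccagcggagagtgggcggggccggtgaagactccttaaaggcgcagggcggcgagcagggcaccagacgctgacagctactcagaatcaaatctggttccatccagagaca
Hsph1: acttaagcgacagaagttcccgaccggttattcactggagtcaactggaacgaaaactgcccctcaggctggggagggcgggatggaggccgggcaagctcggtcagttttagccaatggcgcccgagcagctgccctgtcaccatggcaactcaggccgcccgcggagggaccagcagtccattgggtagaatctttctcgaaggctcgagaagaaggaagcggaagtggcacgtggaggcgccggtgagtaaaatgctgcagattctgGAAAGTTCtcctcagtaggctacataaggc
Chordc1: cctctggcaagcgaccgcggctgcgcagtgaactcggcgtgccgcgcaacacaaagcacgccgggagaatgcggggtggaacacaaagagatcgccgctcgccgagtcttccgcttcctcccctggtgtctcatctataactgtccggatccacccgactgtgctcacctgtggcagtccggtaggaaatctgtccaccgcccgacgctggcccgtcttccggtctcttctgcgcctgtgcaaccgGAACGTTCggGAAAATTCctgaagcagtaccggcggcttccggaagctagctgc
The match in Hspa1b begins 104 bases before the start, that of Hsph1 lies after it, and Chordc1 has 2 matches in a row across its start. GAANNTTC reads the same on both strands, and it was found in 11 of the 17 chaperone genes that had a promoter in the table (64.71%) against 9.04% of 27025 genes, and in 7.86% of 32851 promoters. The 11 count Hspd1 and Hspe1 separately, although these share 1 site read from opposite strands. They also count Hspa1a and Hspa1b separately, whose promoters are nearly identical, with the match 104 bases before the start in both. All 3 promoters shown have a match, whereas Dnajb1, Hspa4l and Stip1, named below, have none. Because the list was chosen as heat shock chaperones, its share of matches was favoured by that choice and does not bear on immunization. A match describes these letters only.

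Hspa1b, an inducible chaperone of the Hsp70 family, gave 0.06, -0.05 and -0.19 in naive and 0.43, 1.74 and 3.43 in immunized mice, 1.93 ± 0.63 or 3.81-fold higher. Hspa1a gave 0.10, 0.00 and -0.04 against 0.17, 0.68 and 3.10, but its sequence is nearly identical to that of Hspa1b, and probe sets may share signal between them. Hsph1, its partner exchange factor, gave -0.35, -0.34 and -0.02 against 0.11, 0.92 and 1.76, and Dnajb1, a co-chaperone, gave -0.42, -0.37 and -0.13 against 0.00, 0.72 and 0.93. In all of these, immunized replicate 3 was highest and immunized replicate 1 closest to the naive mice. The constitutive chaperones Hspa8 and Hsp90aa1 were higher by 0.45 ± 0.12 and 0.42 ± 0.09, with Hsp90aa1 at -0.11, -0.18 and -0.14 against 0.13, 0.22 and 0.48. Hspa4l, a relative of Hsph1, was higher by 0.47 ± 0.10, the adaptor Stip1 by 0.53 ± 0.15, the zinc-binding cochaperone Chordc1 by 0.52 ± 0.17 and the mitochondrial chaperonin Hspd1 by 0.34 ± 0.10. The smallest adjusted p of the list was 0.235, for Hsp90aa1.

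List medians by array were -0.07, -0.10 and -0.04 in naive and 0.02, 0.28 and 0.44 in immunized mice. There were 15 higher genes without immunized replicate 1 and 9 without immunized replicate 3. The median was 0.20 when immunized replicates 2 and 3 and BALB/cByJ immunized replicate 3 were all left out. It was 0.21 without the 3 arrays with low erythroid genes. Each fit that gave these medians left 1 array in a BALB/cJ group. Among 21 endoplasmic reticulum chaperone and stress genes, 6 were higher and 0 lower, with a median of 0.12. Hyou1, an exchange factor of the secretory pathway, differed by 0.28 ± 0.07, its partner Hspa5 (BiP) by 0.17 ± 0.07, Manf by 0.18 ± 0.08 and Sdf2l1 by 0.16 ± 0.07. That count was 1 without naive replicate 2 or immunized replicate 3 and 8 without immunized replicate 2.

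**Figure D4:**
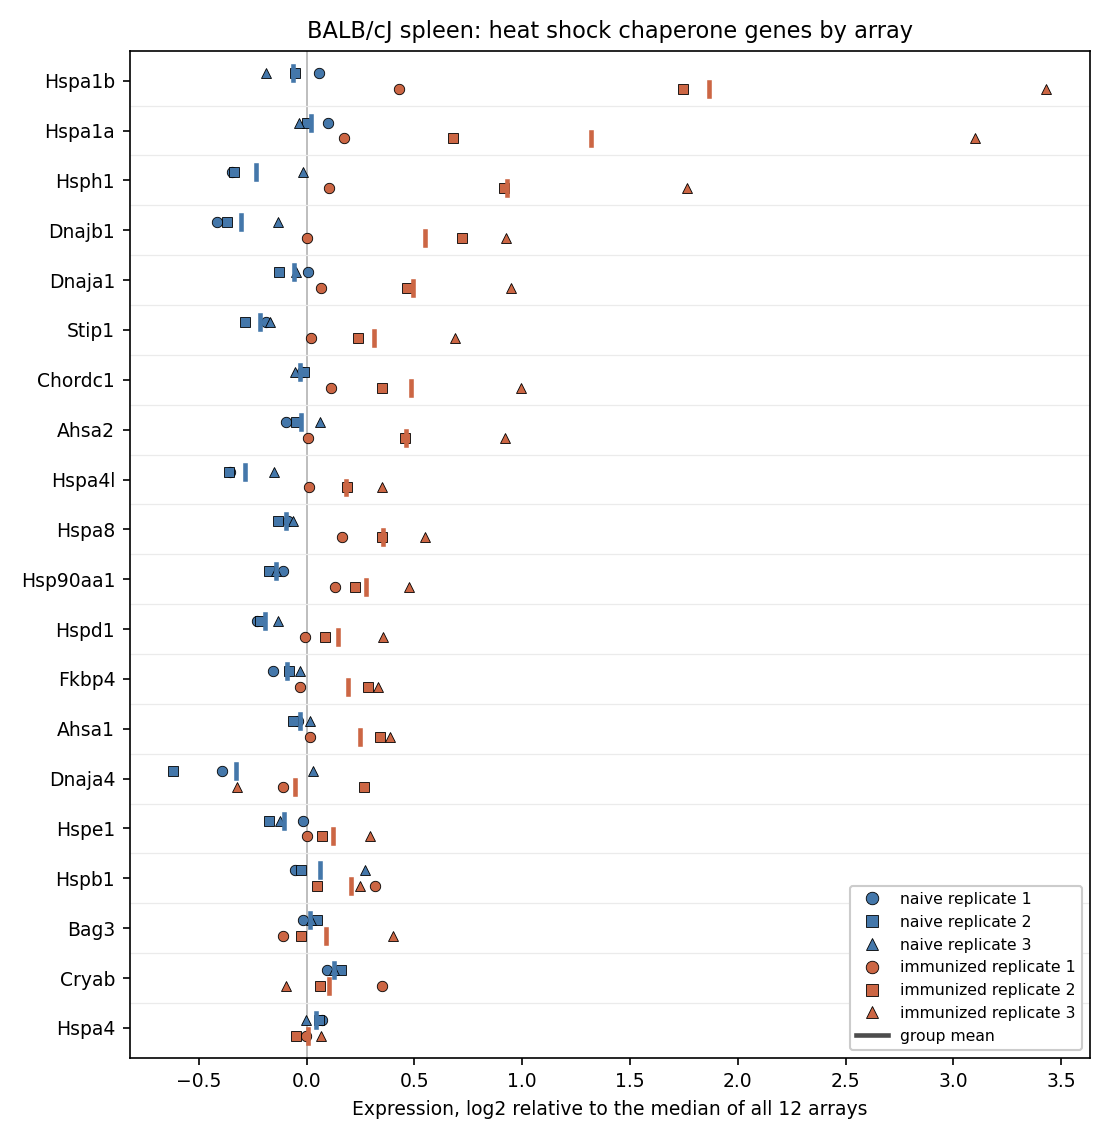
Expression of the 20 measured heat shock chaperone genes in each BALB/cJ array, ordered by the immunized minus naive difference (blue naive, orange immunized, shape for replicate, thick ticks are group means), on a log2 scale relative to the median of all 12 arrays. Immunized replicate 3 reaches 3.43 for Hspa1b and 3.10 for Hspa1a, and immunized replicate 1 stands at 0.43 and 0.17.

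Genes of red cell precursors, mitosis and DNA replication were higher by list but moved with the erythroid level of single arrays. Of 20 erythroid genes 9 were higher at an unadjusted p under 0.05 and 0 lower (median 0.71), 15 of 25 mitosis and cytokinesis genes (median 0.51) and 23 of 27 DNA replication genes (median 0.37), again with 0 lower. Over all genes 4.69% were higher and 5.3% lower at that threshold. In BALB/cByJ the 3 medians were -0.25, -0.11 and -0.07. Between the BALB/cJ groups 1 of 20 erythroid, 1 of 25 mitosis and 7 of 27 replication genes did not overlap upward, against 7.41% of all genes. Car1 (carbonic anhydrase 1), the erythroid gene that did not overlap, stood at -0.70, -0.83 and -0.57 in naive and 0.05, 0.03 and 0.06 in immunized mice, 0.75 ± 0.14 or 1.68-fold higher. Tfrc, the transferrin receptor that supplies iron to erythroblasts, gave -1.38, -1.30 and -0.85 against 0.64, 0.73 and -0.38 on its probe set with the largest difference, 1.51 ± 0.41. Rhag, Klf1 and Gata1, a red cell membrane protein and the 2 main erythroid transcription factors, differed by 1.04 ± 0.36, 0.87 ± 0.35 and 0.62 ± 0.23. For these 3, naive replicate 3 lay above immunized replicate 3.

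In the cell cycle lists, Bub1, a spindle checkpoint kinase, gave -0.72, -0.79 and -0.47 in naive and -0.05, -0.03 and -0.38 in immunized mice, a difference of 0.51 ± 0.13. Aurka and Ect2, which act in spindle assembly and cytokinesis, differed by 0.44 ± 0.13 and 0.72 ± 0.24 with overlapping groups. Cdc25a, the phosphatase that opens S phase, was the most even, at -0.24, -0.25 and -0.19 against -0.05, -0.03 and -0.03. The checkpoint kinase Chek1 gave -0.39, -0.40 and -0.22 against 0.05, 0.10 and -0.12, and Mcm4, of the replicative helicase, -0.44, -0.57 and -0.42 against 0.09, 0.00 and -0.24. Prim1, Uhrf1, Rrm2 and Pcna, the primase, the maintenance methylation factor, the ribonucleotide reductase subunit and the replication clamp, were higher by 0.48, 0.74, 0.85 and 0.37. The genes named for the smallest p toward higher expression, a choice that fixes their direction, included Trip13, a checkpoint ATPase, at 0.42 ± 0.08, Atad2, a bromodomain ATPase, at 0.71 ± 0.15, and Endod1 at 0.54 ± 0.11. Minpp1, an inositol phosphate phosphatase, and Tmem33, an endoplasmic reticulum membrane protein, were higher by 0.62 ± 0.13 and 0.55 ± 0.11.

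Leaving out single arrays moved these counts widely. Erythroid genes numbered 19 without naive replicate 3 and 2 without naive replicate 1, naive replicate 2 or immunized replicate 2. Mitosis genes numbered 24 without naive replicate 3 or immunized replicate 3 and 2 without immunized replicate 2, and replication genes 27 without naive replicate 3 and 10 without naive replicate 2. With mean erythroid expression in the model 6 replication genes and 1 mitosis gene remained at an unadjusted p under 0.05. Without the 4 arrays where pigment cell genes were high, which include naive replicates 1 and 2, naive replicate 3 was the lone naive BALB/cJ array. In that fit the mitosis median was 0.02, the replication median 0.16 and the erythroid median -0.11. When the 2 colonies' responses were compared, 9 erythroid, 7 mitosis and 14 replication genes had a larger response in BALB/cJ at an unadjusted p under 0.05 (3.19% of all genes) and 1 mitosis gene a smaller one, and 0 passed after adjustment in limma.

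Interferon and platelet lists were above 0 without single genes standing out. All 18 measured type I interferon response genes differed by more than 0 (50.8% of all genes did), 2 at an unadjusted p under 0.05 with a median of 0.23, and by array the list medians were -0.14, -0.30 and -0.09 against 0.05, 0.12 and -0.11. Oasl1, an inhibitor of interferon production, gave -0.39, -0.42 and -0.38 against -0.04, 0.42 and 0.03, and Usp18, which removes the ubiquitin-like ISG15, differed by 0.50 ± 0.22. That count was 4 without naive replicate 3 or BALB/cByJ naive replicate 3, and 1 without naive replicate 1 or 2, immunized replicate 1 or 2, BALB/cByJ naive replicate 2 or BALB/cByJ immunized replicate 1. All 11 megakaryocyte and platelet genes were above 0 (median 0.28), 1 of them at an unadjusted p under 0.05: Gp6, the platelet collagen receptor, at -0.04, -0.36 and -0.37 against 0.24, 0.10 and 0.35. None of the 18 interferon-gamma response genes, 10 MHC class II genes, 15 dendritic cell genes, 13 NK and cytotoxic genes or 12 cartilage matrix genes had an unadjusted p under 0.05, and their medians lay between -0.07 and 0.05. Of 44 cytosolic ribosomal protein genes 1 was lower, of 55 mitochondrial respiratory chain genes 1 higher, of 27 autophagy genes 1 lower and of 10 adipose genes 1 lower.

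The genes with the smallest p toward lower expression are given first. Ankrd11, a chromatin regulator and the gene with the smallest p of the whole comparison, gave 0.50, 0.37 and 0.27 in naive and -0.23, -0.29 and -0.13 in immunized mice. The difference was -0.60 ± 0.08 (1.51-fold lower, adjusted p = 0.21), and all 7 of its probe sets were lower. Terb1, a meiotic telomere protein, gave 0.14, 0.04 and 0.01 against -0.45, -0.52 and -0.37, and its other probe set was lower by 0.72 ± 0.14. Esrrg, an orphan nuclear receptor of energy metabolism, gave 0.50, 0.63 and 0.38 against -0.26, -0.19 and -0.16, and Hivep3, a zinc finger protein binding immune gene enhancers, 0.13, 0.19 and 0.10 against -0.34, -0.30 and -0.37. In each of these the 3 arrays of a group lay within 0.25 of each other. The choice by smallest p and non-overlapping groups fixed their separation and favoured tight groups. Zfp318, which mature B cells need to make IgD, differed by -0.49 ± 0.09. Carns1, a carnosine synthase, differed by -0.53 ± 0.09, Pacsin1, an endocytic membrane-bending protein, by -0.51 ± 0.09, and Anxa6, a calcium-dependent membrane-binding annexin, by -0.52 ± 0.10. Sorbs2, an actin adaptor, was lower by 0.60 ± 0.09 on 1 probe set, but only 2 of its 4 probe sets were lower, and Kif5a, a neuronal kinesin, was lower by 0.52 ± 0.10 on the only probe set of its 3 that was lower. Of the probe sets of Esrrg 2 of 3 were lower, and of those of Zfp318 4 of 5. The unnamed transcripts 1700028E10Rik and 4933426B08Rik differed by -0.46 and -0.43.

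The lowest differences of all belonged to the pigment cell genes given above, whose groups overlapped. The genes that follow had the largest differences among those with an unadjusted p under 0.05 and groups that did not overlap. Tpsab1, a mast cell tryptase, gave 0.37, 0.02 and 1.34 in naive and -0.09, -0.74 and -0.47 in immunized mice, a difference of -1.01 ± 0.45. Ccn1 (Cyr61), a matricellular protein, gave 0.51, 0.22 and 0.32 against -0.09, -1.15 and -0.73, a difference of -1.01 ± 0.38. Pcdh12, a protocadherin of endothelium, differed by -0.83 ± 0.19, Nid1, a basement membrane link protein, by -0.76 ± 0.29, Trim63, a muscle ubiquitin ligase, by -0.72 ± 0.15, and Peg3, an imprinted zinc finger gene, by -0.69 ± 0.16, with 4 of its 5 probe sets lower. In the stromal and endothelial list, 12 of 16 genes were below 0 and 4 were lower at an unadjusted p under 0.05, with a median of -0.15 against 0.21 in BALB/cByJ. They were Stab2, a scavenger receptor of sinusoids, at 0.52, 0.41 and 0.16 against 0.08, -0.03 and 0.03, the vascular receptors Kdr and Tek, lower by 0.44 ± 0.14 and 0.36 ± 0.12, and the pericyte receptor Pdgfrb. Pdgfrb gave 0.70, 0.64 and 0.08 against 0.53, -0.49 and -0.33, so immunized replicate 1 lay among the naive mice. The count was 9 without immunized replicate 1 and 1 with the erythroid covariate. The list median turned to 0.11 without the high heat shock arrays and to 0.009 without the low erythroid arrays, and was -0.23 without the high pigment arrays. Each of those fits left 1 array in a BALB/cJ group.

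Few immediate early and NF-kB genes differed. Of 19 immediate early genes 1 was higher and 2 lower at an unadjusted p under 0.05, against 4.69% and 5.3% of all genes. The median difference was -0.04. Atf3, a stress-induced transcription factor, was higher by 0.34 ± 0.09, at 0.13, -0.23 and -0.06 against 0.37, 0.20 and 0.28, whereas Egr1 was lower by 0.53 ± 0.18 and Ier2 by 0.15 ± 0.06. Relb, a subunit of the alternative NF-kB pathway, was lower in every immunized mouse, at 0.17, 0.23 and 0.21 against -0.01, 0.01 and -0.04, a difference of -0.22 ± 0.06. Of the 29 innate receptor and NF-kB signalling genes 1 was higher (Saa3) and 2 lower at an unadjusted p under 0.05, against the same shares. Of the 14 Fc and complement receptor genes 2 were higher and 1 lower, among them C3ar1 and Fcer2a as above.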

How the data were processed

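Spleen RNA of 12 mice was measured, of which the 6 BALB/cJ arrays are the comparison here and the 6 BALB/cByJ arrays share its variance estimate. The deposited values are log2 values that the authors made with RMA (background correction, quantile normalization, median polish) in GeneSpring and set relative to each probe set's median over the 12 arrays, so signal levels and detection were not known here. Only the processed values were used, and precision is limited by the number of arrays. limma 3.58.1 in R 4.3.3 fitted the 4 group means and empirical Bayes tested immunized minus naive in BALB/cJ, with Benjamini-Hochberg adjustment over 45037 probe sets and a threshold of 0.05. The script was tested on simulated data with 200 changed probe sets. Noise there was drawn independently for each probe set, so that test does not show which differences could be detected in these arrays. Platform annotation gave 34945 probe sets 1 gene, 932 several and 9160 none, and 34741 were matched to RefSeq by gene ID. For 33 gene lists each gene was the mean of its single-gene probe sets (18193 genes). Each array is a separate mouse per the study's methods. Named genes were up to 12 in each direction with the smallest p and no overlap, up to 8 in each direction with the largest difference, the genes marked by the study, up to 4 of each list with the smallest p, the assayed cytokines, and 6 from the difference of responses. All members and lists were chosen with earlier results of these data known, as were some alternatives added later. The dose is that of the labels, and the methods give a different one.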

Additional observations from a re-analysis of the deposited data

How the results depend on the processing

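The immunization response in BALB/cJ had 0 calls in the limma fit as chosen, 651 with array weights (naive replicate 2 had the highest weight in BALB/cJ), 28 by the methods' analysis of variance, 2 without the 3 arrays of low erythroid expression, 50 without the 3 arrays of high heat shock expression and 0 to 3 when 1 array was left out, the 3 without immunized replicate 3 being probe sets without a gene name. These sets of arrays were chosen after seeing the data. Leaving out the low erythroid, high heat shock or high pigment arrays left 1 array in a BALB/cJ group. Counts from those fits therefore also reflect lost replication and are not comparable with the others. Probe sets higher at an unadjusted p under 0.05 numbered 1814, against 4064 with array weights, 1052 among probe sets of above-median SD, 854 at the level of genes, 781 without low erythroid arrays, 616 without high pigment arrays and 1131 to 2305 with 1 array left out. Lower ones numbered 2323, against 4585, 1145, 964, 872 and 726 in the same order, 1428 without high heat shock arrays and 1558 to 2966 with 1 array left out. The difference between the responses had 0 calls, 2 after quantile normalization, 9 without high heat shock arrays and 0 to 10 with 1 array left out (10 without immunized BALB/cJ replicate 1, 3 without immunized BALB/cJ replicate 3, 2 without naive BALB/cByJ replicate 1, 1 without immunized BALB/cByJ replicate 2). At an unadjusted p it had 3417, against 6765, 1711, 1580, 1494 and 1193 in the order above (array weights, SD, genes, erythroid, pigment) and 2385 to 5312 with 1 array left out. The causes were not tested.

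The sample titles number the replicates but state no pairing of mice. Deviations from the group mean correlated at 0.25, -0.23 and -0.26 for same-numbered BALB/cJ mice. For other pairs of naive and immunized mice they ranged from -0.42 to 0.52. With so few mice these values cannot decide whether mice were paired. With the replicate block the response had 0 calls, with 1999 higher and 2755 lower at an unadjusted p under 0.05, and the difference of responses had 0 calls and 4011. The analysis of variance and the fit of 6 arrays could not give the difference of responses.

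Of 117 named values, 14 changed sign under at least 1 of 27 settings. With 1 array left out, Neil1 ranged from -0.052 to 0.090, Rassf6 from -0.087 to 0.084, Gcsam from -0.016 to 0.073, Il1b from -0.27 to 0.013, Ifng from -0.00059 to 0.26, Csf3r from -0.31 to 0.011, Cxcr2 from -0.10 to 0.17 and Mmp9 from -0.078 to 0.20. With the erythroid covariate Neil1 was at -0.0022, Rassf6 at 0.075, Il1b at 0.043 and Mmp9 at -0.025. Without low erythroid arrays Neil1 was at -0.0098, Rassf6 at 0.13, Csf3r at 0.29 and Dct at 0.49. Without high heat shock arrays Neil1 was at -0.14, Ifng at -0.19, Csf3r at 0.094, Pdgfrb at 0.054, Dct at 0.75, Dbp at -0.26 and Hlf at -0.014. Without high pigment arrays Rassf6 was at 0.24, Il1b at 0.070, Csf3r at 0.11 and Klf1 at -0.043. Rassf6 was also at 0.026 after quantile normalization, 0.0013 after median centring, 0.0087 with array weights and 0.0052 with the run of sample numbers as a random block. Bcl6 was at -0.031 without probe sets ending in _s_at, _x_at or _a_at.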

Other observations

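Circadian clock output genes, chosen after their values were seen, divided the immunized mice. Dbp, a clock-controlled transcription factor, stood at -0.41, -0.61 and -0.58 in naive and -0.79, 0.85 and 0.95 in immunized BALB/cJ mice. Hlf, a factor of the same family, gave -0.38, -0.28 and -0.25 against -0.32, 0.50 and 0.83. In both genes immunized replicate 1 lay among or below the naive mice and replicates 2 and 3 lay above them. In BALB/cByJ the differences were -1.40 and -0.83. Of 17 measured clock genes 2 were higher and 1 lower at an unadjusted p under 0.05, with a median of 0.17. The time of day of collection was not given in the sources used here, and its part in these values was not tested.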
